A study of Danio rerio with 75 samples.

Results

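Liver of male zebrafish (Danio rerio) aged 24 months was compared with liver of fish aged 6 months, both of the strain labelled AB JxTu and with no listed transgene. The comparison holds 9 of the 75 libraries of the series, chosen by tissue and age label, with 5 libraries at 24 months and 4 at 6 months. Liver was also sampled at 12 months from Tg(flk:mCherry) fish, at 36 months from Tg(pu.1:GFP) fish and at 42 months from Tg(wt1a:GFP) fish, so that among the liver groups 24 against 6 months is the pair with no change of listed line. All 23 liver libraries entered the fit, because the 5 ages then share an estimate of the spread. Libraries were sequenced, and levels are given as CPM, counts scaled to the size of the library after TMM scaling, which corrects for a few abundant genes taking a large share of a library. CPM does not correct for gene length, so levels are compared between libraries and not between genes. Total counts were 31306947 to 58166358 per library, mitochondrially encoded genes took 4.88% to 8.18% of counts, and no pair of libraries was identical. Each library is labelled as a sample of its own, and 8 of the 9 carry a fish number that skin libraries share.

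The liver makes plasma proteins, bile acids and lipoproteins, stores and burns lipid, and modifies foreign compounds with cytochrome P450 enzymes. Most of this work is done by hepatocytes, which express fabp10a, a liver fatty acid binding protein, and tfa, the iron carrier transferrin. In fish the intestine and the exocrine pancreas lie close against the liver. The intestine is marked by fabp2, the intestinal fatty acid binding protein, and by the peptide transporter slc15a1b.

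The 9 libraries did not hold the same tissue. At 6 months fabp10a was at 910, 2.46, 16982 and 17141 CPM in replicates 1 to 4, and at 24 months it was at 45.9, 8478, 10795, 13013 and 7931 CPM in replicates 1 to 5. The other hepatocyte marker, tfa, was at 4976, 4.49, 51161 and 87060 CPM at 6 months, and at 195, 28718, 24425, 27495 and 42266 CPM at 24 months. The library labelled 6 months replicate 2 thus almost lacked both markers, the library labelled 24 months replicate 1 was very low in both, and 6 months replicate 1 was low. The levels of fabp2 ran the other way. They were 3939, 4219, 51.0 and 31.1 CPM at 6 months and 2084, 40.3, 11.3, 185 and 12.9 CPM at 24 months. The same 3 libraries were therefore the high ones for the intestine gene, and the tissue labels of 6 months replicate 2 and 24 months replicate 1 go against their hepatocyte markers.

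Scaled by gene length, in the RPKM values that the authors deposited, fabp2 was at 4192 and fabp10a at 2466 in 6 months replicate 1. In 6 months replicate 2 fabp2 was at 4403 RPKM and fabp10a at 6.54 RPKM, and in 24 months replicate 1 they were at 2547 and 143 RPKM. In the other 6 libraries fabp10a was at 16935 to 27157 RPKM and fabp2 at 10.4 to 152 RPKM, so that the order of the 2 genes was reversed.

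**Figure D1:**
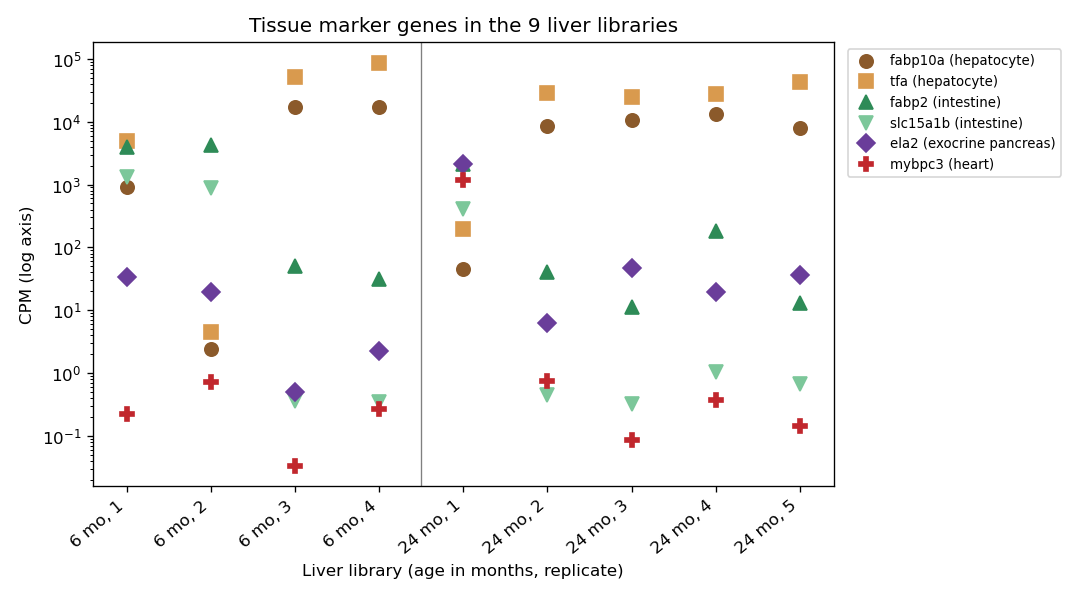
Levels of 6 tissue marker genes in each of the 9 liver libraries, in CPM on a log axis, with 6 months to the left and 24 months to the right of the line; each point is 1 library. In 6 months replicates 1 and 2 and 24 months replicate 1 the intestine genes fabp2 and slc15a1b are high and the hepatocyte genes are low, and mybpc3 and ela2 are high in 24 months replicate 1.

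Wider marker lists gave the same 3 libraries. The 46 hepatocyte genes found summed to 78110 and 55591 CPM in 6 months replicates 1 and 2. They summed to 12851 CPM in 24 months replicate 1, the lowest library by this sum, and to 140124 to 387282 CPM in the other 6. The 46 enterocyte genes found summed to 56101 and 70703 CPM in 6 months replicates 1 and 2 and to 18413 CPM in 24 months replicate 1, against 1048 to 4034 CPM in the other 6. Any liver library at or above the lowest of these 3 sums is called rich in intestine RNA here. By this limit 9 of the 23 liver libraries were rich and 14 were low, which leaves 2 libraries of 6 months and 4 of 24 months. The library labelled 24 months replicate 1 also held other tissues. Its 26 exocrine pancreas genes summed to 76883 CPM against 228 to 2706 CPM in the other 8, and its 24 cardiac muscle genes, a list added after values were seen, to 25432 CPM against 38.3 to 308 CPM. Erythrocyte genes summed to 11525 CPM in 24 months replicate 5 and 7055 CPM in 24 months replicate 1, against 431 to 1797 CPM in the other 7.

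Macrophage genes summed to 561 to 1790 CPM at 6 months and 558 to 2264 CPM at 24 months, and these ranges overlap. Neutrophil genes spanned 115 to 257 CPM and 123 to 616 CPM, and lymphocyte genes 33.9 to 350 CPM and 53 to 211 CPM. Among the 6 libraries low in intestine RNA, however, all 3 sums were lower in both libraries of 6 months than in most of 24 months, with 33.9 and 39.5 CPM against 53 to 211 CPM for lymphocyte genes. The germ cell gene piwil1 was at or near 0 in all 9. In bulk tissue a lower level cannot be told apart from fewer cells of the type that expresses the gene.

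Of 21045 genes tested over all 23 liver libraries, 748 differed between 24 and 6 months (3.55%, adjusted p under 0.05, edgeR quasi-likelihood test). Of these, 353 were higher at 24 months (1.68%) and 395 were lower (1.88%), and 633 differed at least 2-fold. The 4 libraries of 6 months and the 5 of 24 months did not overlap for 1397 of the genes tested (6.64%), and for 569 of the 748. Without the libraries rich in intestine RNA, 418 of 22451 genes differed (1.86%), 74 higher (0.33%) and 344 lower (1.53%). Called in both fits with the same direction were 158 genes, 36 higher and 122 lower, which is 21.1% of the calls of the first fit and 37.8% of those of the second. Of 747 called genes that the fit of 14 libraries also tested, 742 had the same sign there. The 14 libraries are part of the 23, so that the fits are not independent. In the fit of 14 libraries the median of all genes was 0.31 on the log2 scale, against 0.07 in that of 23, and log2 values are best read beside it.

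With the 9 libraries of 6 and 24 months alone no gene was called by edgeR. In that fit 3176 of 19110 genes had an unadjusted p under 0.05 and the smallest adjusted p was 0.069. DESeq2 called 2361 genes and limma voom 582, both over all 23 libraries. The spread behind the calls over 23 libraries was estimated with the 14 libraries of other ages, which came from other lines. With only the 2 libraries of 6 months and 4 of 24 months low in intestine RNA, edgeR called 294 of 19368 genes. Of these, 37 were higher and 257 lower, with no library of another age in the fit. Why the 9 libraries alone gave no call was not tested. Leaving out single libraries moved the edgeR count of the fit of 23 libraries from 277, without 6 months replicate 1, to 888, without 24 months replicate 1. Without 6 months replicates 2, 3 or 4 it was 363, 324 and 293, and without 24 months replicates 2 or 5 it was 402 and 417. Of the 55 called genes that the naming rule took, 22 passed whichever of the 9 libraries was left out. These were the risers nr1d4a, odc1, cebpa, cilp, slc26a10, cyp26b1, btbd11a, brf2, mid1ip1b, pde6d and snapc4, and the fallers cyp2k18, cyp2k19, isg15, cmpk2, nupr1, ypel3, wbscr27, C21H5orf4, agpat3, fkbp4 and ACP2. Each other gene of the 55 lost its call without at least 1 library.

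**Figure D2:**
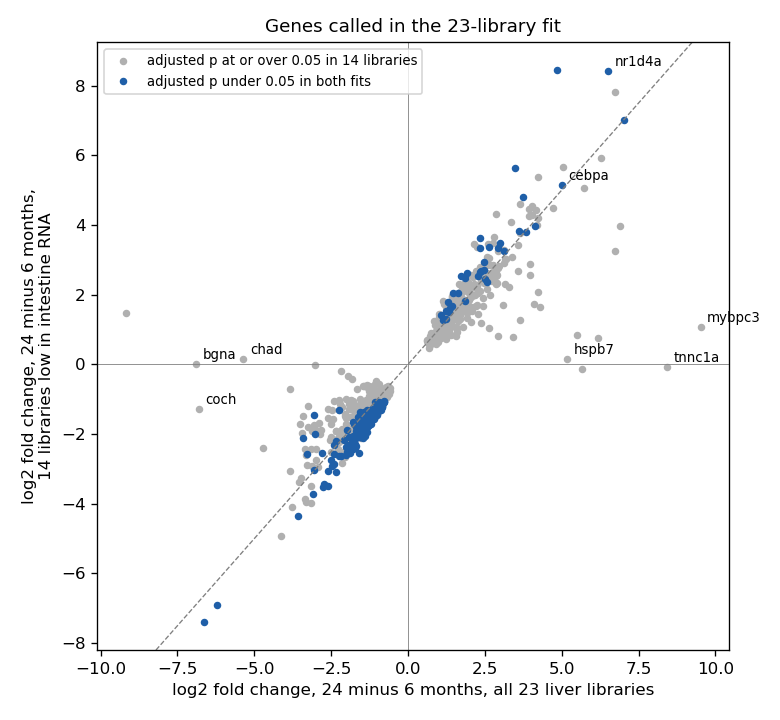
Log2 fold change of 24 against 6 months for the 747 called genes tested in both fits, with all 23 liver libraries on the x axis and the 14 low in intestine RNA on the y axis; each point is 1 gene, blue where also called in the second fit, and the dashed line marks equal values. Most points lie near the line, while mybpc3, tnnc1a, hspb7, bgna and chad lie near 0 on the y axis. coch lies at -1.29 on the y axis, against -6.81 on the x axis.

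The most stable calls were found by counting the fits in which a gene passed. In every one of 20 alternative fits 32 genes were called in the same direction, 5 higher and 27 lower. The fit of the 9 libraries alone, which called none, is not among the 20. These genes were chosen for their calls, which are therefore a description.

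The highest of the 32 was cebpa, which encodes C/EBP alpha, a transcription factor of hepatocytes, fat cells and myeloid cells. It was at 26.6, 19.7, 37.9 and 15.8 CPM at 6 months and at 159, 1460, 461, 1405 and 579 CPM at 24 months. The lowest library of 24 months, replicate 1, was the one poor in hepatocyte markers, and it was still above every library of 6 months. The fitted difference was 5.01 on the log2 scale (SE 0.98, adjusted p = 0.011), a 32.2-fold higher level, and 5.15 without the rich libraries (adjusted p = 0.014). The related factor cebpb was at 35.0 to 91.1 CPM at 6 months and 61.6 to 93.2 CPM at 24 months, and its difference of 0.35 did not pass (SE 0.46, adjusted p = 0.68).

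Rising with it was mid1ip1b, a relative of the mammalian regulator of acetyl-CoA carboxylase and so of fatty acid synthesis. It was at 10.8, 12.4, 5.34 and 3.35 CPM at 6 months and at 28.8, 238, 62.6, 67.8 and 138 CPM at 24 months, with no overlap. The difference was 3.74 (SE 0.78, adjusted p = 0.016). lsm8, a subunit of the ring of proteins that binds U6 spliceosomal RNA, rose from 3.08 to 4.64 CPM to 6.37 to 37.7 CPM (2.47, SE 0.39, adjusted p = 0.0043).

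The 27 lower genes were of many functions. ACP2, a lysosomal acid phosphatase, was at 36.4, 34.4, 36.0 and 43.0 CPM at 6 months and at 16.4, 10.7, 11, 14.4 and 14.7 CPM at 24 months. These groups were tight, and the fall was 2.80-fold (-1.49 on the log2 scale, SE 0.18, adjusted p = 0.00087). lmbrd1, a lysosomal protein needed for the export of cobalamin, fell by 1.48 with the same adjusted p. The gene listed as C21H5orf4 was at 805, 830, 782 and 1011 CPM at 6 months and at 201, 111, 110, 220 and 116 CPM at 24 months. It fell by 2.51 (SE 0.37, adjusted p = 0.0026), and rich and poor libraries of an age had like levels. papola, a poly(A) polymerase, was at 81.9 to 95.9 CPM and at 28.4 to 41.7 CPM, and sfpq, a splicing factor, at 93.6 to 134 CPM and 28.8 to 53.8 CPM.

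Of the rest of the 27, agpat3, an acyltransferase of phospholipid synthesis, was at 149 to 223 CPM at 6 months and 33.5 to 81.7 CPM at 24 months, a fall of 1.69 (SE 0.34, adjusted p = 0.012). bco2a, which cleaves carotenoids, was at 11.3 to 25.4 CPM and 2.95 to 5.37 CPM and fell by 2.41. fkbp4, a cochaperone of Hsp90, was at 61.0 to 87.9 CPM and 22.9 to 39.6 CPM and fell by 1.42. wbscr27, listed as mettl27 in the reference names, was at 3.95 to 5.13 CPM and 0.467 to 1.5 CPM and fell by 2.62. For all 4 of these genes the groups did not overlap.

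**Figure D3:**
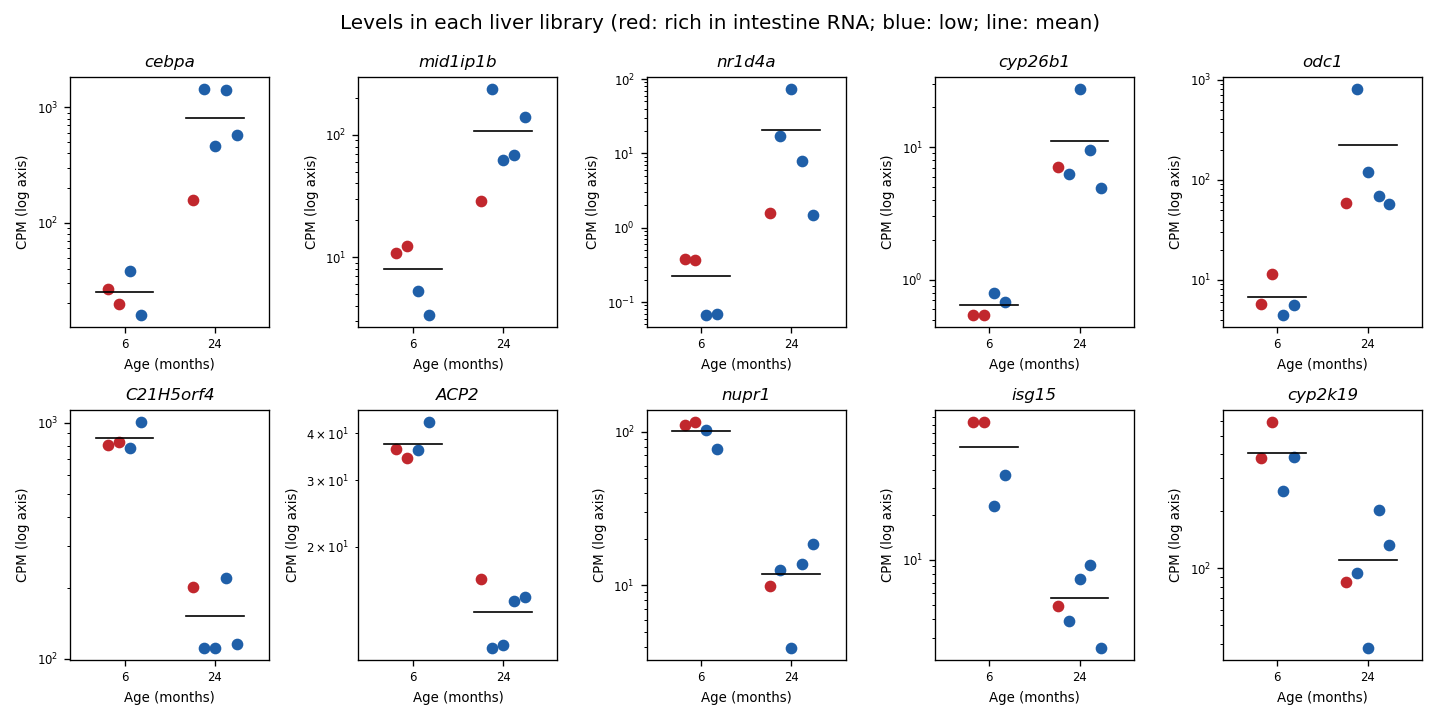
Levels of 10 genes in each liver library of 6 and 24 months, in CPM on log axes; each point is 1 library, red where rich in intestine RNA and blue where low, and the line is the group mean. In all 10 panels the groups do not overlap, and for isg15 the red points of 6 months are the highest.

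Several further genes rose strongly. nr1d4a, a nuclear receptor of the Rev-erb family, was at 0.382, 0.367, 0.0663 and 0.0684 CPM at 6 months and at 1.58, 16.9, 74.5, 7.82 and 1.48 CPM at 24 months. The difference was 6.5 (SE 1.18, adjusted p = 0.0081), from levels close to the floor at 6 months, and replicate 3 was far above the others. cyp26b1, which degrades retinoic acid, was at 0.539 to 0.796 CPM and at 4.95 to 27.7 CPM, a difference of 4.13 (SE 0.66, adjusted p = 0.0043). It passed without the rich libraries as well (3.97, adjusted p = 0.03). odc1, ornithine decarboxylase of polyamine synthesis, was at 4.41 to 11.4 CPM at 6 months and at 58.0, 814, 120, 68.2 and 56.8 CPM at 24 months. It rose by 5.04 (SE 1.03, adjusted p = 0.014), but it did not pass without the rich libraries (5.67, adjusted p = 0.083).

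Of the genes called higher in both fits, brf2, a subunit of an initiation factor of RNA polymerase III, was at 0.432 to 0.83 CPM and at 1.00 to 26.6 CPM, and rose by 3.83 (SE 0.64, adjusted p = 0.0051). snapc4, of the complex that activates small nuclear RNA genes, was at 1.03 to 2.0 CPM and 3.26 to 27.8 CPM and rose by 2.99 (SE 0.49, adjusted p = 0.0048). pde6d, a carrier of prenylated proteins, rose by 3.12 (SE 0.50, adjusted p = 0.0043). All 3 were called in both fits, and none was an abundant gene. cilp, slc26a10 and btbd11a rose by 4.72, 4.20 and 4.04, and each was under 1.1 CPM in every library of 6 months. The 3 did not pass without the rich libraries (adjusted p = 0.088, 0.097 and 0.063).

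Part of the interferon genes were lower at 24 months. Type I interferon signals through STAT2, and IRF7 raises its production, while isg15, rsad2 and cmpk2 are antiviral effectors that it induces. Of 44 interferon and antigen processing genes tested, 6 fell and none rose, against 1.88% lower among all genes, and the list median was -0.67 against 0.07 over all genes. isg15 was at 83.8, 83.8, 22.9 and 36.8 CPM at 6 months and at 4.88, 3.86, 7.41, 9.19 and 2.55 CPM at 24 months. The groups did not overlap, and it fell by 3.34 (SE 0.63, adjusted p = 0.0091).

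rsad2, which encodes viperin, was at 139, 66.6, 13.9 and 60.5 CPM at 6 months and at 6.07, 1.43, 1.54, 13.6 and 1.73 CPM at 24 months (-3.86, SE 0.99, adjusted p = 0.035). irf7 was at 54.1, 76.7, 11.6 and 12.9 CPM and at 3.05 to 6.29 CPM, and fell by 3.04 (SE 0.69, adjusted p = 0.023). stat2, a factor of the interferon signal, was at 212 to 304 CPM and 52.5 to 173 CPM, and fell by 1.51. pkz, a kinase of fish that senses Z-form nucleic acid, fell by 1.9 (adjusted p = 0.043). Outside the list, cmpk2 was at 9.15 to 27 CPM and 0.689 to 4.83 CPM and fell by 3.29 (adjusted p = 0.012). With 1 of the 9 libraries left out these genes kept their sign, but rsad2 lost its call in 6 of 9 fits, irf7 in 3, pkz in 7 and stat2 in 8.

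At 6 months this group moved with intestine RNA. In the libraries of that age rich in it, isg15, rsad2, irf7 and pkz were higher than in the others. For rsad2 the nearest values were 66.6 CPM in a rich library and 60.5 CPM in a low one. The rich library of 24 months, replicate 1, was not raised in this way. Its isg15, rsad2 and irf7 were at 4.88, 6.07 and 5.11 CPM, within the range of the other libraries of 24 months. Without the rich libraries only irf7 of the 6 was called lower (-1.46, adjusted p = 0.043), with isg15 at -2.43 (adjusted p = 0.083) and rsad2 at -3.07 (adjusted p = 0.17). Of the 44 genes 1 was then lower and 1 higher, against 1.53% and 0.33% of all genes. The median of the list was 0.13, above 0 but still below the 0.31 of all genes. With the mean level of enterocyte genes as a covariate in the fit of 23, 7 of the list were lower and 1 higher, and isg15 (-2.87, adjusted p = 0.0087), rsad2 (-3.37, adjusted p = 0.04) and irf7 (-2.0, adjusted p = 0.014) passed. That covariate fit called 694 of all 21045 genes lower and 568 higher. With single libraries left out the list held 1 to 7 lower genes, where all genes had 180 to 427. The list held 1 without 6 months replicates 1 or 2 or 24 months replicate 2, 2 without 24 months replicates 3 or 5 and 3 without 6 months replicate 4. In the fit of 14 libraries mhc2dab, a class II antigen presentation gene, was called higher (5.17, adjusted p = 0.033). Its 4 libraries of 24 months low in intestine RNA were at 34.3 to 197 CPM, beside 2.25 and 2.74 CPM in those of 6 months.

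Part of the cytochrome P450 and conjugation genes were lower at 24 months. Family 2 and 3 cytochromes oxidise foreign compounds, and sulfotransferases and glutathione transferases attach groups that make them soluble. Of 86 xenobiotic genes tested, 11 fell and 1 rose, against 1.88% lower and 1.68% higher among all genes. In the list 67 had a fold change below 0, against 46.8% of all genes, and the median was -0.82 against 0.07. Without the rich libraries 1 fell and 1 rose, against 1.53% lower and 0.33% higher among all genes. For 19 of the 86 the groups did not overlap, where 6.64% of all genes did not. The lower genes were 4 without 6 months replicates 1 or 2, 7 without 24 months replicate 2 and 6 without 24 months replicate 5. Over all genes the lower calls in these fits were 180, 257, 203 and 190, against 395 in the first fit. The list held 3 lower genes without 6 months replicate 2 and 24 months replicate 1 together, the 2 libraries lowest in hepatocyte markers. Over all genes that fit called 242 lower.

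cyp2k19 was at 381, 593, 256 and 385 CPM at 6 months and at 85.1, 94.3, 37.9, 204 and 132 CPM at 24 months, a fall of 1.88 (SE 0.38, adjusted p = 0.012). cyp2k18 was at 309, 424, 36.9 and 64.1 CPM and at 27.6, 13.2, 2.14, 32.7 and 16.4 CPM, and its 2 high libraries were those rich in intestine RNA. cyp2ad3 and cyp2aa12 were not highest in the rich libraries. cyp2aa12 was at 107, 117, 163 and 131 CPM at 6 months and at 24.3 to 59.5 CPM at 24 months, and fell by 1.70 (SE 0.38, adjusted p = 0.022). Of the 11, it was the member also called lower without the rich libraries (-1.78, adjusted p = 0.04), while cyp2ad3 was at -1.48 (adjusted p = 0.0505).

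cyp2p6, cyp2x8, cyp2v1, cyp2aa1, cyp3c1, sult1st6 and the glutathione transferase gene listed as zgc:66350 were the others, with falls of 1.06 to 3.05. The member that rose was cyp2aa4. It was at 1.28, 1.43, 0.0332 and 0.103 CPM at 6 months and at 1.24, 30.3, 27.3, 13.6 and 31.8 CPM at 24 months. It overlapped through replicate 1 of 24 months alone, and rose by 4.84 (SE 1.33, adjusted p = 0.048) and, without the rich libraries, by 8.45 (adjusted p = 0.00023). Cytochrome genes of a family are near copies, and counts could be split between them. as3mt, the arsenic methyltransferase, fell in both fits (-2.72, adjusted p = 0.017, and -3.43, adjusted p = 0.012), and its libraries of 6 months low in intestine RNA were the high ones, at 175 and 154 CPM. With 1 of the 9 libraries left out cyp2aa4 lost its call in 8 of 9 fits, and as3mt in 1.

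Bile acid genes had 3 of 30 members that fell and none that rose, against 1.88% lower among all genes. These were cyp27a7, cyp27a1.2 and cyp27a1.3, relatives of the mammalian sterol 27-hydroxylase. cyp27a7 was at 54.1, 32.3, 41.6 and 102 CPM at 6 months and at 13.9, 5.68, 6.46, 25.7 and 14.7 CPM at 24 months, and fell by 2.13 (SE 0.48, adjusted p = 0.023). The 3 are close copies, and none was called lower without 6 months replicate 4 or 24 months replicate 2. The fold changes of cyp27a7 and cyp27a1.3 stayed below 0 with single libraries left out, at most -1.72 and -1.25. None passed without the rich libraries, and the list median was 0.01 over all 23.

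A few genes of lipid use and sugar metabolism were lower. angptl4, a secreted inhibitor of lipoprotein lipase, was at 164, 322, 37.5 and 158 CPM and at 31.1, 30.1, 4.59, 28.5 and 12.7 CPM, and fell by 3.00 (SE 0.83, adjusted p = 0.049). acad11, an acyl-CoA dehydrogenase, fell by 1.71 (SE 0.42, adjusted p = 0.032). These were the 2 of 35 fatty acid oxidation genes that passed, against 1.88% lower among all genes. Of the 35, 29 were below 0, against 46.8% of all genes, and the median was -0.49 against 0.07. gpd1c, a glycerol-3-phosphate dehydrogenase, was at 333, 367, 95.6 and 81.2 CPM and at 17.5 to 43.1 CPM, and fell in both fits (-3.02 and -1.99). pfkfb1, which sets the level of fructose 2,6-bisphosphate, fell by 1.89 (adjusted p = 0.04). Without the rich libraries angptl4, acad11 and pfkfb1 did not pass (-2.42, -1.64 and -2.07, adjusted p = 0.14, 0.16 and 0.12). With 1 of the 9 libraries left out, angptl4 lost its call in all 9 fits, acad11 in 8, pfkfb1 in 7 and gpd1c in 4.

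Plasma protein genes differed where the rich libraries were left out. Over all 23 libraries none of 46 hepatocyte genes passed, against 3.55% of all genes. Of the 46, 39 were below 0, against 46.8% of all genes, and the median was -0.54 against 0.07. That direction was not stable, since the median was 1.04 with limma voom and 0.01 without 6 months replicate 4. Without the rich libraries 8 of 46 fell and none rose, against 1.53% lower among all genes, and the median was -1.15 against 0.31. apoa1a, the main protein of high density lipoprotein, was at 8884 and 10336 CPM in the libraries of 6 months left in and at 714, 2274, 803 and 743 CPM in those of 24 months. It fell by 3.14 (SE 0.49, adjusted p = 0.015). apoa1a is also a gene of the intestine, and in the 3 rich libraries it was at 21802, 17474 and 4990 CPM. Over all 9 the ages did not overlap, but the difference did not pass (-2.93, adjusted p = 0.086).

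rbp4, the retinol carrier of plasma, was at 6459 and 5065 CPM and at 1193, 1254, 1126 and 673 CPM, and fell by 2.49 (SE 0.49, adjusted p = 0.032). AHSG, the fetuin gene, was at 2310 and 4785 CPM and at 846 to 933 CPM. f2, prothrombin, was at 4553 and 4943 CPM and at 1365 to 1650 CPM. The others were f9a, serpind1, gc and ces3, with falls of 1.78 to 1.85. Most of the 8 act in clotting, transport and lipoproteins. fabp10a and tfa, with differences of -0.81 and -1.23, did not pass (adjusted p = 0.3 and 0.11). This rests on 2 libraries at 6 months. Their TMM factors were 0.71 and 0.67, against 1.05 to 1.33 in the 4 libraries of 24 months. In RPKM, which takes no TMM factor, fabp10a was at 23085 and 22018 against 16935 to 27157. The hepatocyte marker fgb was at 3126 and 3293 RPKM against 1967 to 3205, and apoa1a at 6509 and 7156 RPKM against 769 to 2885. The part of the scaling in these falls was not tested.

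Clock genes moved in both directions. The clock of vertebrate cells pairs CLOCK or NPAS2 with BMAL, which drive period and cryptochrome genes that repress them, and Rev-erb and ROR receptors set BMAL levels. Of 44 clock genes 4 rose and 4 fell, against 1.68% higher and 1.88% lower among all genes. Without the rich libraries 2 rose and 2 fell, against 0.33% higher and 1.53% lower among all genes. With single libraries left out 1 to 4 were called higher and 0 to 4 lower, and none was called lower without 6 months replicate 4. All genes had 83 to 461 higher and 180 to 427 lower in those fits. Apart from nr1d4a, the risers were nr1d4b (3.37), dbpb (2.25), a clock output factor, and cry3 (1.11). cry3, a cryptochrome, was at 23.3, 24.6, 16 and 19 CPM at 6 months and at 29.1 to 57.5 CPM at 24 months (SE 0.25, adjusted p = 0.023).

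The lower clock genes were npas2, cry5, rorab and cry2a. npas2 was at 10.6, 14.1, 14.2 and 9.23 CPM at 6 months and at 2.29, 0.885, 2.40, 0.304 and 0.761 CPM at 24 months, and fell by 3.16 (SE 0.85, adjusted p = 0.042). cry2a was at 349 to 450 CPM and at 40.5, 88.9, 278, 78.8 and 62.5 CPM, where replicate 3 of 24 months stood near the younger level. cry5, a photolyase relative, and rorab fell in both fits. per1b, per2, per3 and arntl1a, the BMAL1 gene, did not pass (0.93, -1.22, -0.58 and -0.48). By the study's methods sampling took place in the middle of the day. No hour is given per fish, and the part of the hour in these values was not tested. With 1 of the 9 libraries left out, npas2, cry2a and dbpb lost their calls in 7 of 9 fits, rorab in 3, and cry3 and cry5 in 2.

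Most proteasome genes had a fold change above 0. The proteasome is the complex that degrades ubiquitin-tagged proteins. Of 43 subunit genes 3 rose, psma3, psmd1 and psmd12, against 1.68% higher among all genes. In the list 3 were below 0, against 46.8% of all genes, with a median of 0.49 against 0.07. The number that rose was 13 with DESeq2, 6 with the enterocyte covariate and 18 with the enterocyte and pancreas covariates. Over all 21045 genes these fits called 1177, 568 and 527 higher, against 353 in the first fit. For 17 of the 43 the groups did not overlap, where 6.64% of all genes did not. psma3 was at 28.2, 45.6, 41.9 and 36.5 CPM and at 70.31, 112, 108, 81.7 and 73.03 CPM, and rose by 1.22 (SE 0.28, adjusted p = 0.025). No subunit passed without 6 months replicates 1, 3 or 4 or 24 months replicate 2. None passed without the rich libraries, and the median there was 0.40 against 0.31 over all genes. Genes of cytosolic ribosomal proteins had 83 of 83 fold changes below 0, against 46.8% of all genes. Their median was -0.57 against 0.07. None passed in any direction, against 3.55% of all genes.

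**Figure D4:**
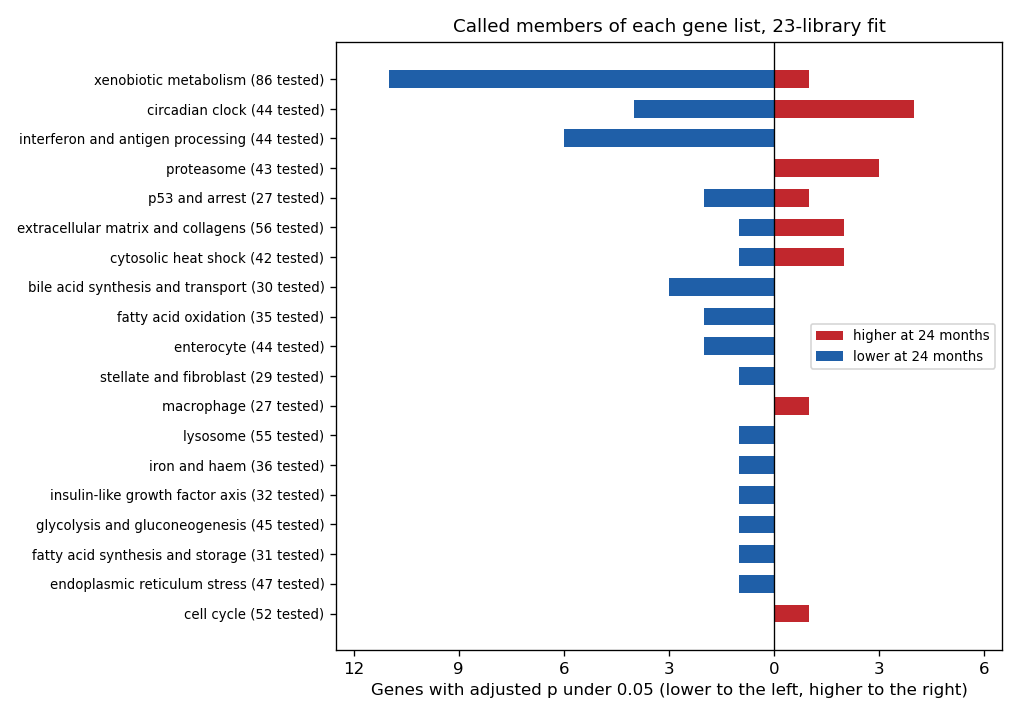
Number of genes called lower (blue, to the left) and higher (red, to the right) at 24 months in the fit of 23 libraries. Shown is each gene list with at least 1 call, with the number of genes tested beside its name. The cardiac muscle list, written after values were seen and with 5 of 17 called higher, is left out. Xenobiotic genes have 11 lower and 1 higher of 86 tested, and clock genes 4 lower and 4 higher of 44. The interferon list has 6 lower and none higher of 44. Among all genes 1.88% were lower and 1.68% higher.

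Other lists had few calls. nupr1, a stress-induced nuclear protein, was at 111, 116, 102 and 77.0 CPM at 6 months and at 9.97, 12.6, 3.90, 13.8 and 18.7 CPM at 24 months, and fell by 3.12 (SE 0.62, adjusted p = 0.012). ypel3, a gene linked to growth arrest in mammals, was at 31.6, 33.7, 9.52 and 32.6 CPM and at 1.45 to 5.81 CPM, and fell by 2.99. Without the rich libraries nupr1 (-2.92, adjusted p = 0.073) and ypel3 (-2.73, adjusted p = 0.052) did not pass. Of 27 p53 genes tested gadd45aa rose by 2.56, and ddb2 and bbc3 fell by 1.13 and 3.13. Among all genes 1.68% were higher and 1.88% lower. The ages overlapped for ddb2. Without the rich libraries gadd45aa passed (2.35, adjusted p = 0.049), while ddb2 (-1.10, adjusted p = 0.16) and bbc3 did not. With 1 of the 9 libraries left out, gadd45aa and ddb2 each lost their call in 3 fits. gadd45aa, of growth arrest and DNA damage, was at 1.23 to 4.41 CPM and at 6.84 to 34.2 CPM.

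derl3, of the export of misfolded proteins from the endoplasmic reticulum, was at 14.7, 18.9, 60.5 and 31.4 CPM at 6 months and at 7.18 to 10.4 CPM at 24 months, and fell by 1.88. Without the rich libraries sec61al1, ddit3 and PPP1R15B fell with it, which made 4 of 47 genes, against 1.53% lower among all genes. sirt1, a deacetylase, fell by 1.03 and hmox2a, a haem oxygenase, by 1.48, and both passed in both fits. csf1ra, the receptor of a macrophage growth factor, rose by 2.39 (3.33 to 5.11 CPM against 9.31 to 54.2 CPM). It was the 1 call among 27 macrophage genes, against 1.68% higher among all genes. Of the 27, 5 were below 0, against 46.8% of all genes, and the median was 0.89 against 0.07. Without the rich libraries csf1ra did not pass (2.43, adjusted p = 0.13). None of the macrophage list was called there, and its median was 2.35 against 0.31 over all genes. rbp2a, an intestine and liver retinol carrier, fell by 2.5, from 2069 to 4255 CPM to 327 to 806 CPM. ccnd1, the G1 cyclin D1, rose by 2.35, with 171 and 85.7 CPM in 24 months replicates 2 and 4 and an overlap. It was the 1 call among 52 cell cycle genes, against 1.68% higher among all genes. Of the 52, 6 were below 0, against 46.8% of all genes, and the median was 0.82 against 0.07. Without the rich libraries no cell cycle gene was called, and the median was 2.99 against 0.31. In that fit rbp2a (-2.09, adjusted p = 0.073) and ccnd1 (2.11, adjusted p = 0.2) did not pass. With 1 of the 9 libraries left out, derl3 and ccnd1 lost their calls in 6 of 9 fits, hmox2a in 7, csf1ra in 5, sirt1 in 2 and rbp2a in all 9.

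For a further group 1 library set most of the difference. mybpc3, a myosin binding protein of heart muscle, was at 0.0332 to 0.734 CPM in the 6 months libraries, at 0.0866 to 0.762 CPM in 24 months replicates 2 to 5, and at 1173 CPM in replicate 1. Its difference of 9.52 (adjusted p = 0.035) was 0.07 without that library. tnnc1a, hspb7 and mb were at 415, 575 and 3128 CPM there, and at most 70.5 CPM elsewhere. myl7, a myosin light chain of the heart, was also highest there, at 2821 CPM, but its other libraries of 24 months, at 70.7 to 216 CPM, were above the 0.427 to 14 CPM of 6 months. Its difference of 6.72 (adjusted p = 0.049) was 4.22 without that library and 3.27 without the rich libraries, and passed in neither fit. Of 17 cardiac muscle genes tested 5 were called higher, against 1.68% of all genes, and 0 without the rich libraries, against 0.33%. This list was written after values were seen. bgna, coch and chad, genes of the extracellular matrix, were called lower, but they were high in 6 months replicate 1 alone, where they were at 73.2, 230 and 49.6 CPM against 0.103 to 1.29 CPM in the other 3 of that age. Without that library bgna was at -0.28 (adjusted p = 0.91) and coch at -1.05 (adjusted p = 0.57). sorbs2a was at 0.475 to 2.35 CPM at 6 months, at 74.6 CPM in 24 months replicate 1 and at 3.58 to 8.05 CPM in the other 4. The ages did not overlap, and it had a difference of 3.65 in all, 1.74 without that library and 1.27 (adjusted p = 0.11) without the rich libraries.

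The levels at other ages did not all follow the difference. cebpa was at 32.0 to 72.0 CPM at 12 months, 132 to 671 CPM at 36 months and 17.3 to 380 CPM at 42 months, where 4 of 5 libraries were under 53 CPM. mid1ip1b had a median of 12.2 CPM at 12 months, 42.8 CPM at 36 months and 9.70 CPM at 42 months. ACP2 had medians of 40.5, 28.7 and 40.9 CPM, and nupr1 of 99.7, 7.74 and 46.3 CPM, at 12, 36 and 42 months. The highest or lowest median was that of 24 months for cebpa, mid1ip1b and ACP2, while for nupr1 it was that of 36 months. The listed line changes with each of these ages and cannot be told apart from age there.

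**Figure D5:**
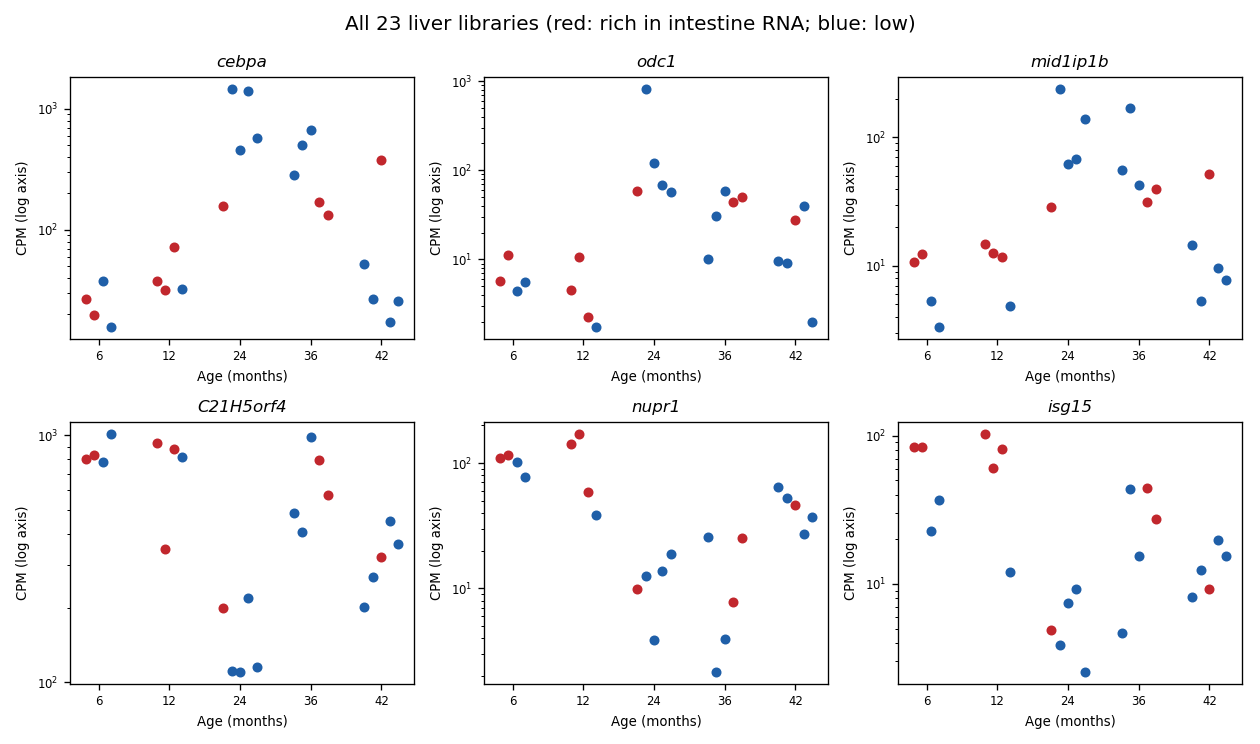
Levels of 6 genes in all 23 liver libraries by age in months, in CPM on log axes; each point is 1 library, red where rich in intestine RNA and blue where low. cebpa, odc1 and mid1ip1b are high at 24 and 36 months and low again in most libraries of 42 months, and C21H5orf4 is lowest at 24 months.

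Skin of the same ages, with no listed transgene, was compared to ask which differences the liver shared. Of 23753 genes tested over 48 libraries, the difference between 24 and 6 months differed between liver and skin for 827 (3.48%), 502 of them higher in liver and 325 lower. The count was 1489 without liver 24 months replicate 4, 1580 without the 3 rich liver libraries, and 198 with the libraries of 6 and 24 months alone. Of the 748 liver calls 296 were among these. cebpa differed by 5.01 in liver and 0.37 in skin, and the gap of 4.64 passed (adjusted p = 0.002). nr1d4a (gap 5.85), cyp26b1 (3.86), brf2 (3.75) and C21H5orf4 (-2.13) passed as well. cry5 was lower by 2.42 in liver and by 2.48 in skin, and cry3 higher by 1.11 and 1.25, and neither gap passed (adjusted p = 0.97 and 0.84). Skin called 4524 of 22429 genes (20.2%). Of the liver calls 231 were called in the same direction in skin, which is 30.9% of the liver calls and 5.11% of the skin calls, and 10 in the opposite one.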

How the data were processed

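Total RNA of liver and skin was sequenced from TruSeq libraries, which do not mark strand. Per the labels and methods, the authors used CASAVA 1.8.0 and TopHat2 2.0.6 against Zv9 and counted reads with HTSeq, for which no version is given, or featureCounts. The deposited counts are whole numbers per gene, which the authors did not normalise. RPKM, reads scaled by gene length and library, was derived by the authors from these counts. Near-identical and overlapping genes are uncertain.

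For 23 liver libraries the counts of genes kept by filterByExpr were scaled by TMM and fitted by quasi-likelihood with robust settings in edgeR 4.0.16 (R 4.3.3), with age as a factor of 5 levels. Tests were 2-sided, with Benjamini-Hochberg adjustment over all genes at 0.05. SE is the fold change divided by the root of F. Liver against skin was an interaction contrast. CPM in the text takes the TMM factors, and mean log2 CPM an offset of 0.5. The p-values set each difference against the spread between libraries, estimated over all libraries in the fit, with those of other ages and lines where these were in it. Alternatives used DESeq2 1.42.0, limma voom 3.58.1, RLE factors, other filters, other library sets, marker covariates and single libraries left out. The code was tested on simulated counts.

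Members, 39 gene lists (1444 of 1666 symbols found) and rules were chosen with earlier results of these data known. Of 32677 gene IDs, 21028 were in the reference name table. Named by rule were called genes with an official symbol, no overlap of the groups and a mean log2 CPM of 1 or more (12 highest and 12 lowest fold changes), 8 higher and 8 lower genes called in both fits, up to 2 called members of each list, and fabp10a, tfa and fabp2. Others, with the cardiac list, were chosen after values were seen. The labels number fish and not replicates, and replicate numbers follow accession order. Liver and skin share fish for 8 of the 9 libraries, and a limma voom fit took fish as a block. Not used were 2 libraries labelled with both skin and liver. A called gene of the interferon list is not reported here by name.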

Additional observations from a re-analysis of the deposited data

Results flagged for a closer look

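A library stood apart from the rest of its group in 8 of 116 gene and group pairs. The measure was the ratio of its gap to the group's range on the log2 scale. Chance alone gives about 1 in 20, and the count is near that share. Pairs from the same library are not independent. In 6 months replicate 1, coch was at 230 CPM and bgna at 73.2 CPM, far above the other 3. In 24 months replicate 1, fabp10a at 45.9 CPM, tfa at 195 CPM and cyp2aa4 at 1.24 CPM were far below the other 4, and sorbs2a at 74.6 CPM was far above them. odc1 stood apart at 814 CPM in 24 months replicate 2, and ypel3 at 9.52 CPM in 6 months replicate 3.

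The difference of 24 against 6 months differed between liver and skin, by the interaction test of edgeR, for 31 of 58 named genes, against 3.48% of all genes. The genes were named for their liver differences, which favours a gap, so that the count is a description. The values are liver minus skin on the log2 scale, and adjusted p was under 0.05 for each. The gap was above 0 for nr1d4a (5.85), cilp (5.11), cebpa (4.64), btbd11a (4.20), slc26a10 (4.15), sorbs2a (4.03), cyp26b1 (3.86), brf2 (3.75), pde6d (2.70), mid1ip1b (2.67), snapc4 (2.63), csf1ra (2.46), ccnd1 (2.21) and hsf1 (1.06). It was below 0 for bgna (-6.43), coch (-6.34), aste1 (-5.21), gpd1c (-3.39), cmpk2 (-2.69), cyp27a7 (-2.67), wbscr27 (-2.51), isg15 (-2.46), nupr1 (-2.30), cyp27a1.3 (-2.27), as3mt (-2.22), ypel3 (-2.15), C21H5orf4 (-2.13), acad11 (-1.70), cyp3c1 (-1.58), agpat3 (-1.42) and ACP2 (-0.77). For bgna and coch the liver value rests on a single library. For sorbs2a the size of the liver value, 3.65, fell to 1.74 without 24 months replicate 1.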

How the results depend on the processing

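The number of genes called depended on the libraries in the fit. Against 748 (353 higher, 395 lower), it was 481 with no filter (220 and 261), 2361 with DESeq2 (1177 and 1184), 0 with the 9 libraries alone (0 and 0), 418 with the 14 libraries low in intestine RNA (74 and 344), 294 with the 6 of 6 and 24 months low in it (37 and 257), and 1262 with an enterocyte covariate (568 and 694). After the data were seen, the fit without the 2 libraries lowest in hepatocyte markers (456, 214 and 242) and that of 14 libraries on the genes of the first fit (487, 98 and 389) were added. RLE factors (786), the filter on every library (881), limma voom (582) and both covariates (1069) gave counts within 1.5 times. Single libraries left out gave 277 to 888 genes, 83 to 461 higher and 180 to 427 lower. The liver against skin count of 827 was 198 with 6 and 24 months alone and 1580 without the 3 rich liver libraries, and 624 to 1489 with single libraries left out. The cause of these shifts was not tested.

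Of 58 named genes, 4 turned in sign. bgna turned to 0.0092 and 0.020 in the 2 fits of 14 libraries. fabp2 (-2.12) turned to 0.58, 0.57 and 0.50 without rich libraries and to 0.37 and 1.28 with covariates. fabp10a (-0.14) turned to 1.78 with limma voom and to 0.32, 0.38 and 0.19 without 6 months replicates 3 or 4 or 24 months replicate 1 (from -0.55 to 0.38 over single libraries), and tfa (-0.56) to 1.68 with limma voom and 0.34 without 6 months replicate 4 (from -0.98 to 0.34). No paired analysis of 24 against 6 months was possible because the labels give no shared replicate numbers and the ages came from different fish. Liver and skin share fish, and the fit that gave 827 genes took no account of this. With the fish as a block in limma voom, the difference between the ages differed between the tissues for 631 genes. Only 2 libraries of 6 months were low in intestine RNA, which limits every value without the rich ones.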

Other observations

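Egg protein genes that estrogen induces in liver were also read in these male fish. All 9 of those tested had a fold change below 0, against 46.8% of all genes. The median was -2.80 over 23 libraries and -2.54 without the rich ones, against 0.07 and 0.31 over all genes. None passed in either fit.

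Without the rich libraries dgat1a, which makes triglyceride, and lpl, lipoprotein lipase, fell by 2.90 and 2.85. lpl was at 2603 and 2594 CPM in the 2 libraries of 6 months and at 558, 137, 400 and 392 CPM in those of 24 months. acadvl and cpt1b, of mitochondrial fatty acid oxidation, fell by 2.76 and 6.36, and cpt1b was at 571 and 851 CPM against 0.498 to 25.02 CPM. prdx1, a peroxiredoxin, rose by 4.55, from 6.80 and 4.75 CPM to 66.5 to 335 CPM. Of 36 antioxidant enzyme genes 1 was called higher and 2 lower in that fit, with a median of -0.32. The fatty acid synthesis and storage list had 3 of 31 lower and the oxidation list 2 of 35, with none higher. Among all genes 0.33% were higher and 1.53% lower. None of the 5 passed over all 23 libraries, and the genes were chosen from the lists after their values were seen.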
